A study of Mus musculus with 44 samples.

Results

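The CXC chemokines are small secreted proteins that direct the movement of leukocytes, and 9 of their genes were followed in mouse skin that had been made fibrotic with bleomycin. The members were listed by name, with earlier results of these data known: Cxcl1, Cxcl2 and Cxcl5, which attract neutrophils through the receptor Cxcr2; Cxcl9 and Cxcl10, which are induced by interferons and attract activated T and NK cells through Cxcr3; Cxcl12, Cxcl13 and Cxcl14, which are made by resting tissue or lymphoid stroma; and Cxcl16, a transmembrane ligand of Cxcr6 that can be shed. All 9 were among the 43411 genes of the table, and all 9 passed the filter of a mean above 3 normalized counts over the mice, which 17037 genes passed.

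A chemokine binds a G protein-coupled receptor on the cell it attracts, and the ligand-receptor pairs sort the family by the leukocyte that responds. Transcription of Cxcl1 and Cxcl2 is known to be driven by NF-kB downstream of IL-1, TNF and IL-17, and that of Cxcl9 and Cxcl10 by interferon regulatory factors and other factors of the interferon response. In skin, Cxcl12 is a product of fibroblasts and vessels, and Cxcl14 of keratinocytes and hair follicles.

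RNA was sequenced from back skin of 44 female C57Bl/6 WT mice, 8 weeks old at the start. The 5 groups were saline (10 mice), bleomycin for 2 weeks (10) or 4 weeks (10), and recovery of 6 weeks (6) or 10 weeks (8). Bleomycin, a DNA-cleaving glycopeptide that produces dermal fibrosis when injected under the skin, was given every day as 100 uL at 1 U/mL per the labels, and per the study's methods the recovery mice had received it for 4 weeks before injections stopped. A supplementary legend of the study gives a lower concentration. How long the saline mice were injected is not given in the sources used here, and since they form 1 group, recovery and the greater age of the recovery mice cannot be told apart.

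Reads on genes ran from 8509094 to 15285577 a mouse, with a median of 11310008. Bleomycin 2 weeks replicate 2 and saline replicate 1 stood farthest from their groups, with median within-group correlations of 0.938 and 0.942, and results that change without them are given so. The keratinocyte genes Krt5, Krt14, Krt1, Krt10, Ivl and Lor summed to medians between 182000 and 200400 normalized counts in the 5 groups, so the epidermal genes that define the labelled tissue were present in all groups. The 4 hair follicle keratins fell at 2 and 4 weeks (4 of 4 called lower at both, against 7.43% and 7.37% of all genes). In whole skin, fewer cells of a type and less RNA per cell cannot be told apart.

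Of the 9 genes, 6 lie on chromosome 5 (GRCm38): Cxcl5 at 90759360-90761624, Cxcl1 at 90891241-90893115 and Cxcl2 at 90903871-90905938 on the plus strand, then Cxcl9 at 92321347-92328079 and Cxcl10 at 92346638-92348889 on the minus strand, and Cxcl13 at 95956951-95961068 on the plus strand. Cxcl12 lies on chromosome 6 (117168535-117181367, plus), Cxcl16 on chromosome 11 (70453983-70459984, minus) and Cxcl14 on chromosome 13 (56288643-56296551, minus). Cxcl10 overlaps Art3, and Cxcl16 overlaps Zmynd15, each on the opposite strand. The library kit keeps strand, but whether the counting used it is not given in the sources used here, so reads of Cxcl10 and Art3, or of Cxcl16 and Zmynd15, may have been shared.

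The 250 bases before the start of transcription are shown for 5 members, because NF-kB letters were found in both the neutrophil and the interferon-driven genes and interferon letters in the latter, and because Cxcl14 holds interferon letters although its RNA fell. The sequences are from RefSeq (GRCm38.p6) and read 5′ to 3′ on the gene's own strand: chr5:90890995-90891244 (plus) for Cxcl1, chr5:90903649-90903898 (plus) for Cxcl2, chr5:92328080-92328329 (minus) for Cxcl9, chr5:92348890-92349139 (minus) for Cxcl10 and chr13:56296552-56296801 (minus) for Cxcl14. Capitals mark the searched letters, and the RefSeq starts of Cxcl1 and Cxcl2 lie inside the gene models whose positions are given above.
Cxcl1: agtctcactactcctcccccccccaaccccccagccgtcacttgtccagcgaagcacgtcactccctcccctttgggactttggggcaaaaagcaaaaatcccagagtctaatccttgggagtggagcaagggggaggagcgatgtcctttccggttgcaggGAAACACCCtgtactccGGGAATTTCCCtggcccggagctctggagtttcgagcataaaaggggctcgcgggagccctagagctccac
Cxcl2: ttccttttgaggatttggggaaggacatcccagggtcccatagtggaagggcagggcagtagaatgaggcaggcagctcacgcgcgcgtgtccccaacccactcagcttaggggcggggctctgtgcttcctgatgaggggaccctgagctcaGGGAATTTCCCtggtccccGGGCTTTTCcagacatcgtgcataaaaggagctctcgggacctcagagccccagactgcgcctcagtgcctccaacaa
Cxcl9: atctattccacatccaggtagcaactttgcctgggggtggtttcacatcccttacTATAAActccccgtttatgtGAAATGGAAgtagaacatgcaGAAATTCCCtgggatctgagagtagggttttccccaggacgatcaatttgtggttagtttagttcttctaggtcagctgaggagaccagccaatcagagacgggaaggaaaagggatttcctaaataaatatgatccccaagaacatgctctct
Cxcl10: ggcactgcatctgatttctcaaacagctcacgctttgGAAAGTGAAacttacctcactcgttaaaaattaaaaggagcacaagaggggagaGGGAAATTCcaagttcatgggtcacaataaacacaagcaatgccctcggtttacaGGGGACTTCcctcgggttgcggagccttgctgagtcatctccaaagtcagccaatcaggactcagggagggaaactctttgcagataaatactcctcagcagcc
Cxcl14: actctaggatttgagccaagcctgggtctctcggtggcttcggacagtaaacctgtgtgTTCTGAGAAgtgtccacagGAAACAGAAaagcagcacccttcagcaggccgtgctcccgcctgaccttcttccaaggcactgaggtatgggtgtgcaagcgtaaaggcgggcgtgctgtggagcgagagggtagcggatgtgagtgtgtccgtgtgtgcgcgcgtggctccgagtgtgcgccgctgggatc

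The letters searched were GAAANNGAA on both strands (an interferon-stimulated response element, ISRE), TTCNNNGAA on both strands (a gamma-activated site, GAS), GGGNNNTTC on both strands (an NF-kB element) and TATAAA on the gene's strand. Promoters were listed for 7 members, Cxcl5 and Cxcl16 being named only. The NF-kB letters occurred in Cxcl1, Cxcl2, Cxcl9 and Cxcl10, and in 11.8% of all 32851 promoters searched. The ISRE letters occurred in Cxcl9, Cxcl10 and Cxcl14, and in 7.1% of all promoters. The GAS letters occurred in Cxcl14 alone of the 7 (7.0% of all), and TATAAA in Cxcl9 and Cxcl13 (7.6% of all). In Cxcl1 an NF-kB match began at position -71, where -1 is the last base before the start, and overlapped a match on the other strand at -69, and a further match on that strand began at -88. Cxcl2 held the same overlapping pair at -97 and -95 and a further match at -78. In Cxcl10 the ISRE match began at -213 and NF-kB matches at -159 and -104, and in Cxcl9 the ISRE match began at -175 and the NF-kB match at -154. TATAAA began at -195 in Cxcl9 and at -46 in Cxcl13. These are matches of letters, not measured binding.

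Per kilobase of exon, Cxcl14 was the highest member in every group. In saline skin its mean level was 1390 normalized counts per kb, against 307.8 for Cxcl12 and 235.6 for Cxcl16. Cxcl13 (32.6), Cxcl10 (31.2) and Cxcl9 (26.3) followed, with SDs of 28.2, 19.2 and 16.8 that are larger than the gaps between them. The neutrophil ligands were lowest, at 2.56 for Cxcl1, 1.42 for Cxcl2 and 0.562 for Cxcl5. Cxcl14 made up 68.54% of the summed per-kb level of the 9 members in saline, 35.98% at 2 weeks and 35.04% at 4 weeks of bleomycin, and 66.0% and 71.09% in recovery. At 2 weeks Cxcl9 had moved to the fourth place at 172.8 per kb, close to Cxcl12 at 192.1 (SDs 133.4 and 51.7).

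**Figure D1:**
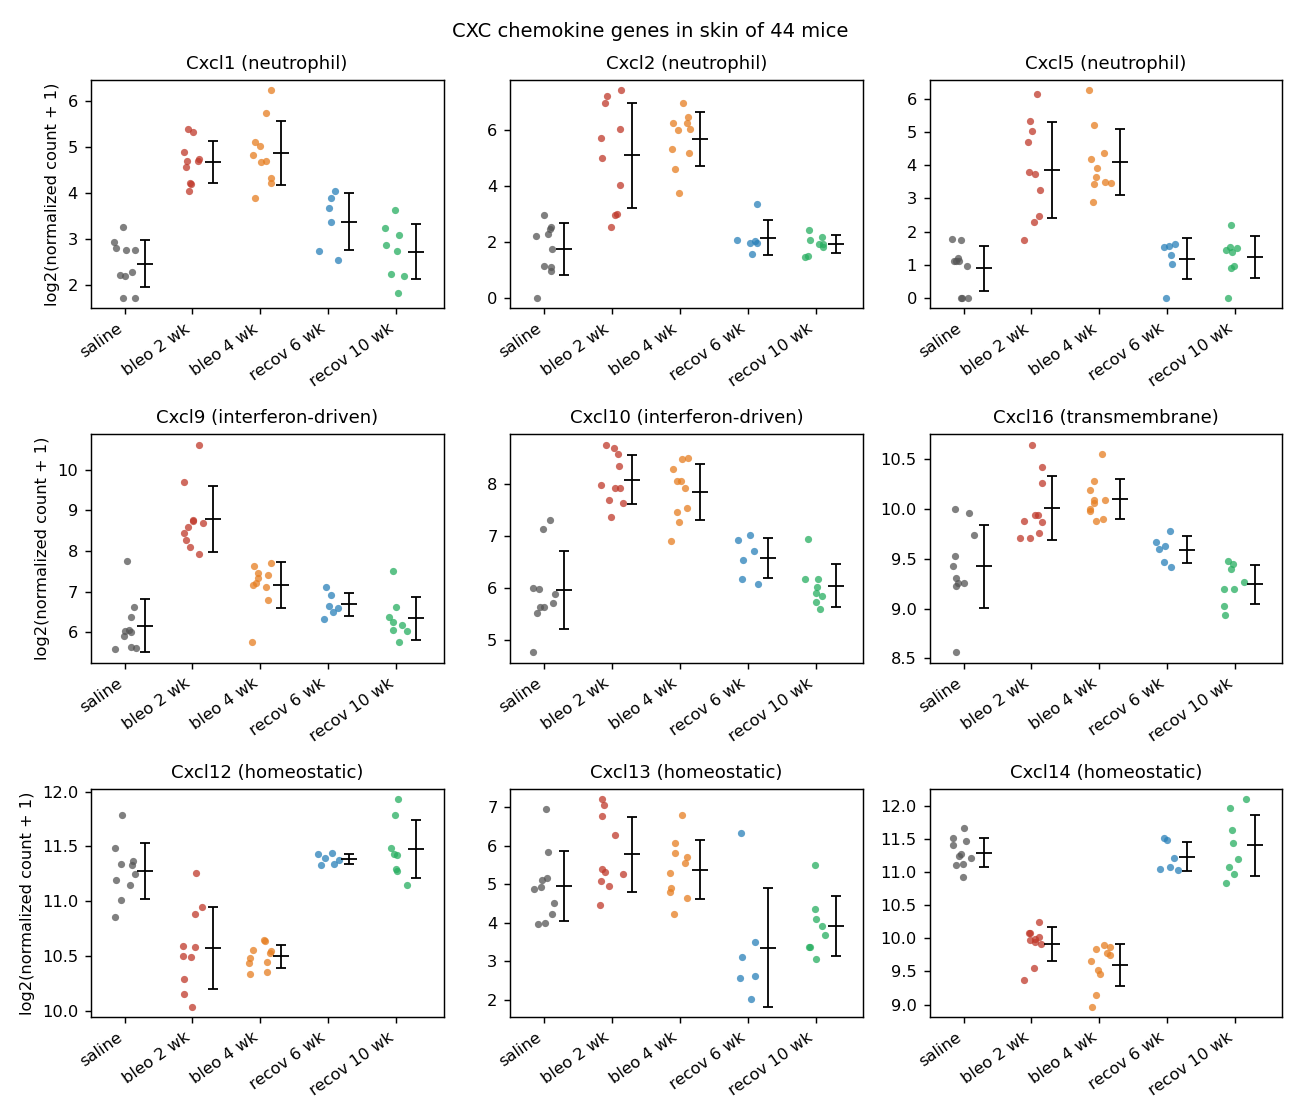
Each point is 1 mouse, on the axis log2(normalized count + 1), for the 9 genes and 5 groups (saline 10, bleomycin 2 weeks 10, bleomycin 4 weeks 10, recovery 6 weeks 6, recovery 10 weeks 8 mice); the bar beside the points is the mean ± SD. Cxcl9 at 2 weeks lies above every saline mouse and every 4-week mouse, while Cxcl14 lies below every saline mouse at both bleomycin times.

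Bleomycin skin held more RNA of all 3 neutrophil ligands and both interferon-driven ligands at both times, and less Cxcl12 and Cxcl14. A gene was called where limma gave a Benjamini-Hochberg adjusted p below 0.05 over all 17037 genes and a fold change above 1.5 (0.585 on the log2 scale). At 2 weeks 6 of the 9 members were higher than in saline, where 9.3% of all genes were, and 2 were lower, where 7.43% of all genes were. At 4 weeks the counts were again 6 higher and 2 lower, against 10.5% and 7.37% of all genes. Fold changes below are limma's differences of log2(normalized count + 1), on which a gene with few reads shows too small a change, and both times were compared with the same saline mice.

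Cxcl1, a neutrophil attractant made by epithelial and stromal cells, ran from 2.28 to 8.49 normalized counts in saline, with a median of 4.79. At 2 weeks it ran from 15.4 to 41.1 (median 24.7), and at 4 weeks from 13.9 to 74.2 (median 25.9). No bleomycin mouse overlapped the saline mice at either time. The log2 fold change was 2.22 (SE 0.26, limma adjusted p = 2.85e-09) at 2 weeks and 2.41 (SE 0.26, limma adjusted p = 3.47e-10) at 4 weeks.

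Cxcl2, a neutrophil attractant of activated myeloid cells, ran from 0 to 6.85 in saline, with a median of 3.002. At 2 weeks the values ran from 4.80 to 172.2 (median 41.8), and at 4 weeks from 12.4 to 124.5 (median 63.9). The spread at 2 weeks was wide: 8 of the 10 mice lay above all saline mice and the others within the saline range, whereas at 4 weeks all 10 lay above. The log2 fold change was 3.35 (SE 0.49, limma adjusted p = 3.84e-07) at 2 weeks and 3.95 (SE 0.49, limma adjusted p = 1.17e-08) at 4 weeks. With counts modelled directly by edgeR it was 4.40 and 4.33.

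Cxcl5, an epithelial neutrophil attractant, was near the limit of detection in saline, where 3 of 10 mice had no read and none had more than 2. Its values ran from 0 to 2.43 normalized counts in saline, from 2.35 to 70.2 (median 12.6) at 2 weeks and from 6.41 to 76.0 (median 12.8) at 4 weeks. At 2 weeks 9 of 10 mice lay above all saline mice, and at 4 weeks all 10 did. Summed over mice, 9 saline reads stood against 184 reads at 2 weeks, a ratio of 19.3 after scaling to each group's total reads (95% exact interval 9.95 to 42.9, counting error only), and 240 reads at 4 weeks, a ratio of 21.6 (11.2 to 47.7). The limma log2 fold change was 2.95 (SE 0.42, adjusted p = 2.93e-07) and 3.19 (SE 0.42, adjusted p = 6.08e-08), and edgeR gave 4.18 and 4.22.

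Cxcl9, induced chiefly by interferon gamma, showed its peak at 2 weeks. In saline it ran from 46.9 to 215.9 normalized counts (median 63.5), at 2 weeks from 240.1 to 1566 (median 397.9), and at 4 weeks from 52.8 to 208.0 (median 153.2). All 10 mice at 2 weeks lay above every saline mouse, and all 10 mice at 4 weeks lay below every 2-week mouse. At 4 weeks none lay above the highest saline mouse, and 9 of 10 lay above the saline mean of 79.2. The log2 fold change against saline was 2.62 (SE 0.27, limma adjusted p = 7.42e-11) at 2 weeks and 1.00 (SE 0.27, limma adjusted p = 0.00254) at 4 weeks.

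Cxcl10, induced by type I interferon as well as interferon gamma, was called at both times. It ran from 26.3 to 158.0 in saline (median 54.8), from 164.3 to 433.1 at 2 weeks (median 246.3) and from 119.3 to 364.2 at 4 weeks (median 253.1). The 2-week and saline mice did not overlap, and 8 of 10 mice at 4 weeks lay above all saline mice. The log2 fold change was 2.13 (SE 0.24, limma adjusted p = 7.59e-10) at 2 weeks and 1.89 (SE 0.24, limma adjusted p = 1.39e-08) at 4 weeks.

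Of the 9 members, Cxcl9 was the 1 gene called between 4 and 2 weeks, where 0.863% of all genes were called lower and 1.49% higher. Its difference was -1.62 on the log2 scale (SE 0.27, limma adjusted p = 0.000265), with both groups' means at 149.8 ± 44.5 and 521.1 ± 402.2 normalized counts (SD, n = 10 each). Cxcl10 differed by -0.24 (95% interval -0.71 to 0.24, limma adjusted p = 0.614). For Cxcl1 the difference was 0.19 (-0.33 to 0.71) and for Cxcl5 0.24 (-0.62 to 1.09). For Cxcl2 it was 0.59 (-0.39 to 1.58), and it turned to -0.07 with edgeR. No member was called higher at 4 than at 2 weeks. The difference was -0.08 for Cxcl12 (-0.30 to 0.14), -0.40 for Cxcl13 (-1.24 to 0.44) and 0.09 for Cxcl16 (-0.16 to 0.34). For Cxcl14 it was -0.32 (-0.59 to -0.06, unadjusted p = 0.0191, limma adjusted p = 0.145). The Cxcl9 value was as low as in saline in bleomycin 4 weeks replicate 3 (52.8), and Cxcl9 stayed called without any single mouse.

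**Figure D2:**
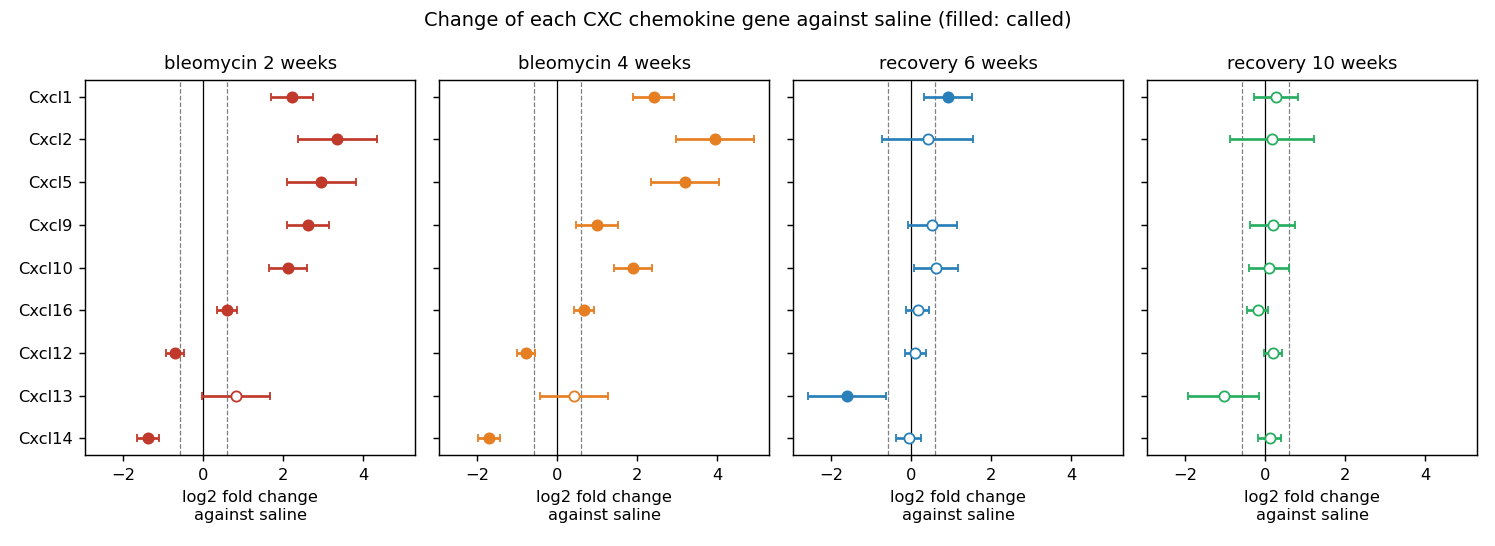
Log2 fold change of each gene against saline in the 4 other groups (limma on log2(normalized count + 1)), with 95% intervals; filled points were called, the dashed lines mark a fold change of 1.5, and Cxcl5 is not drawn in recovery, where nearly all its values rest on 3 reads or fewer. The 5 neutrophil and interferon-driven genes stand right of the line at both bleomycin times, Cxcl12 and Cxcl14 left of it, and at 10 weeks of recovery the intervals of all drawn genes but Cxcl13 include 0.

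Cxcl12, the ligand of Cxcr4 and a stromal signal that holds stem cells and leukocytes in place, ran from 1856 to 3535 normalized counts in saline (median 2501). At 2 weeks it ran from 1050 to 2440 (median 1488) and at 4 weeks from 1291 to 1603 (median 1453). At 2 weeks 7 of 10 mice lay below all saline mice, and at 4 weeks all 10 did. It fell by 0.70 on the log2 scale (SE 0.11, limma adjusted p = 1.25e-06) at 2 weeks and by 0.78 (SE 0.11, limma adjusted p = 1.70e-07) at 4 weeks.

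Cxcl14, a chemokine of healthy epithelium, ran from 1946 to 3243 in saline (median 2453), from 663.8 to 1215 at 2 weeks (median 1011) and from 499.0 to 958.0 at 4 weeks (median 835.2). Every bleomycin mouse at both times lay below every saline mouse. It fell by 1.38 (SE 0.13, limma adjusted p = 2.06e-11) at 2 weeks and by 1.70 (SE 0.13, limma adjusted p = 4.96e-14) at 4 weeks.

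Markers of cells known to make Cxcl12 or Cxcl14 did not all move one way. Of the 5 fibroblast markers, Pdgfra, Col1a1 and Col1a2 were called lower at 2 weeks, and Pdgfra alone at 4 weeks, by 1.08 (SE 0.12, limma adjusted p = 1.39e-09); the list's median log2 fold change was -0.71 at 2 weeks and 0.18 at 4 weeks. Of the 5 markers of endothelium, which also makes Cxcl12, 2 were called higher at both times and none lower. These were Pecam1, by 0.69 and 0.74, and Emcn, by 0.79 and 0.90. Cdh5, Kdr and Tek were not called, with Kdr and Tek pointing lower than saline at both times. All 4 hair follicle keratins (Krt25, Krt71, Krt27, Krt35) were lower at both times, their sum having a median of 36770 normalized counts in saline (1843 to 194300), 17.2 at 2 weeks (7.92 to 1544) and 37.2 at 4 weeks (15.7 to 4294). Of the 6 keratinocyte markers 0 were called at 2 weeks and 1, Ivl, was lower at 4 weeks. Beside these marker counts, 9.3% of all genes were higher and 7.43% lower at 2 weeks, and 10.5% and 7.37% at 4 weeks. The part of these cells in the fall of Cxcl12 and Cxcl14 was not tested.

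Cxcl13, which attracts B cells through Cxcr5, was spread widely within groups. It ran from 14.6 to 123.0 in saline (median 29.1), from 21.1 to 147.0 at 2 weeks (median 40.2) and from 17.9 to 109.9 at 4 weeks (median 41.8), so that the groups overlapped. The difference from saline was 0.82 (SE 0.42, limma adjusted p = 0.124) at 2 weeks and 0.42 (SE 0.42, limma adjusted p = 0.459) at 4 weeks. Without saline replicate 10, the mouse at 123.0, the 2-week difference was 1.04 with an adjusted p of 0.0434. Cxcr5 was below the filter, with 8 of 10 saline mice at no read.

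Cxcl16, made by macrophages, dendritic cells and endothelium, ran from 376.8 to 1019 in saline (median 659.7), from 832.8 to 1600 at 2 weeks (median 958.5) and from 939.8 to 1500 at 4 weeks (median 1077). At 2 weeks 3 of 10 mice and at 4 weeks 7 of 10 lay above all saline mice. The log2 fold change was 0.59 (SE 0.12, limma adjusted p = 0.000189) at 2 weeks and 0.68 (SE 0.12, limma adjusted p = 2.46e-05) at 4 weeks. The 2-week value sits on the fold limit: leaving out any 1 of 8 mice (saline replicates 1, 3, 4, 7 and 10, bleomycin 2 weeks replicates 2, 4 and 5) took it to between 0.49 and 0.57, with adjusted p of at most 0.000659. At 4 weeks it was 0.58 without saline replicate 1.

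In recovery few or no members were called against saline. At 6 weeks 1 of 9 members was higher than in saline (3.33% of all genes) and 1 was lower (1.71%), and at 10 weeks none was called in either direction (3.05% of all genes). Cxcl1 at 6 weeks ran from 4.81 to 15.4 normalized counts (median 10.4), with 4 of 6 mice above all saline mice and a log2 difference of 0.91 (SE 0.30, limma adjusted p = 0.0448). Cxcl13 at 6 weeks ran from 3.08 to 78.9 (median 6.40), with 5 of 6 mice below all saline mice and a difference of -1.60 (SE 0.48, limma adjusted p = 0.0291). Both sit at the threshold: Cxcl1 lost its call without any 1 of saline replicates 1, 4, 5, 7 or 8 or recovery replicates 1, 3, 4 or 5 (log2 difference 0.78 to 0.91, adjusted p 0.0596 to 0.118), and Cxcl13 without saline replicate 10 or recovery replicates 1, 3, 4 or 6 (-1.55 to -1.33, adjusted p 0.0569 to 0.0835). With edgeR the adjusted p was 0.0584 for Cxcl1 and 0.225 for Cxcl13.

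The other members were not called at 6 weeks of recovery. Cxcl10 differed from saline by 0.62 (95% interval 0.07 to 1.17, limma adjusted p = 0.141) and Cxcl9 by 0.53 (-0.09 to 1.14). Cxcl2 differed by 0.42 (-0.72 to 1.55) and Cxcl16 by 0.17 (-0.12 to 0.46). Cxcl12 differed by 0.11 (-0.15 to 0.36) and Cxcl14 by -0.06 (-0.37 to 0.25). For Cxcl5, whose values ran from 0 to 2.06 at 6 weeks and from 0 to 3.55 at 10 weeks, no fold is given, since saline and recovery skin were both at or near the limit of detection.

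At 10 weeks Cxcl13 ran from 7.29 to 44.4 (median 13.1), a difference of -1.04 from saline with an unadjusted p of 0.0241 and a limma adjusted p of 0.170; it was the 1 member with an unadjusted p below 0.05 there. Between 10 and 6 weeks none of the 9 members was called (0.088% of all genes), Cxcl1 and Cxcl16 having unadjusted limma p of 0.0439 and 0.0247. Among the 8 members other than Cxcl5, the differences between these times lay between -0.65 for Cxcl1 and 0.56 for Cxcl13. Cxcl2 at 10 weeks ran from 1.77 to 4.45 (median 2.80) and Cxcl9 from 53.5 to 181.7 (median 73.1), within the saline range. Cxcl14 ran from 1831 to 4410 (median 2580) and Cxcl12 from 2274 to 3905 (median 2754). Their differences from saline were 0.11 (95% interval -0.17 to 0.40) and 0.20 (-0.04 to 0.43). Those of Cxcl1 and Cxcl2 were 0.26 (-0.29 to 0.82) and 0.18 (-0.87 to 1.22), those of Cxcl9 and Cxcl10 were 0.18 (-0.38 to 0.75) and 0.09 (-0.41 to 0.59), and that of Cxcl16 was -0.18 (-0.45 to 0.08).

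Against 4 weeks of bleomycin, the 6-week recovery skin held less of 5 members (7.14% of all genes were lower) and more of 2 (4.8% were higher). Cxcl2 fell by 3.53 (SE 0.56, limma adjusted p = 5.28e-06) and Cxcl5 by 2.91 (SE 0.49, limma adjusted p = 1.29e-05), neither group of mice overlapping the other. Cxcl1 fell by 1.497 (SE 0.30, limma adjusted p = 0.000175) and Cxcl10 by 1.27 (SE 0.27, limma adjusted p = 0.000449), with overlap. Cxcl14 rose by 1.64 (SE 0.15, limma adjusted p = 4.03e-11) and Cxcl12 by 0.89 (SE 0.13, limma adjusted p = 5.68e-07), without overlap. Cxcl13 was called at -2.02 (SE 0.48, limma adjusted p = 0.00156), a call that edgeR did not make (-1.38, adjusted p = 0.0629). Cxcl9, already down at 4 weeks, differed by -0.47 (limma adjusted p = 0.275). Cxcl16 differed by -0.51 (limma adjusted p = 0.00686), under the fold limit, though all 6 recovery mice lay below all 10 bleomycin mice.

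To set the interferon-driven genes against the others in the same mice, the log2 ratio of Cxcl9 or Cxcl10 to each of the other 7 members was compared between bleomycin and saline by a two-sided permutation test of 100000 resamples, with p adjusted over the 28 tests. The smallest p this can give is 1e-05, and the tests share genes and saline mice. At 2 weeks 8 of 14 ratios changed, namely those to Cxcl12, Cxcl13, Cxcl14 and Cxcl16. Cxcl9 rose more than Cxcl14 by 4.00 (permutation test, adjusted p = 6.22e-05) and more than Cxcl12 by 3.32 (permutation test, adjusted p = 8.4e-05). None of the 6 ratios to a neutrophil ligand passed: for Cxcl9 the changes were 0.40 against Cxcl1, -0.74 against Cxcl2 and -0.34 against Cxcl5, and for Cxcl10 they were -0.09, -1.23 and -0.83. With a pseudocount of 0.1 in place of 1, 10 of 14 ratios passed, among them Cxcl10 against Cxcl2 (-1.88, permutation test, adjusted p = 0.03) and against Cxcl5 (-2.14, permutation test, adjusted p = 0.0177).

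At 4 weeks 11 of 14 ratios changed, and Cxcl9 had risen less than each neutrophil ligand. The change was -1.41 against Cxcl1 (permutation test, adjusted p = 0.00192), -2.95 against Cxcl2 (permutation test, adjusted p = 0.000127) and -2.19 against Cxcl5 (permutation test, adjusted p = 6.22e-05). Cxcl10 had risen less than Cxcl2, by -2.06 (permutation test, adjusted p = 0.00129), and Cxcl5, by -1.30 (permutation test, adjusted p = 0.00954), while -0.52 against Cxcl1 did not pass (permutation test, adjusted p = 0.208). Against Cxcl16, Cxcl9 changed by 0.32 (permutation test, adjusted p = 0.251) and Cxcl10 by 1.21 (permutation test, adjusted p = 0.000452). Both still exceeded Cxcl14, by 2.70 and 3.59 (permutation test, adjusted p = 6.22e-05 each).

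**Figure D3:**
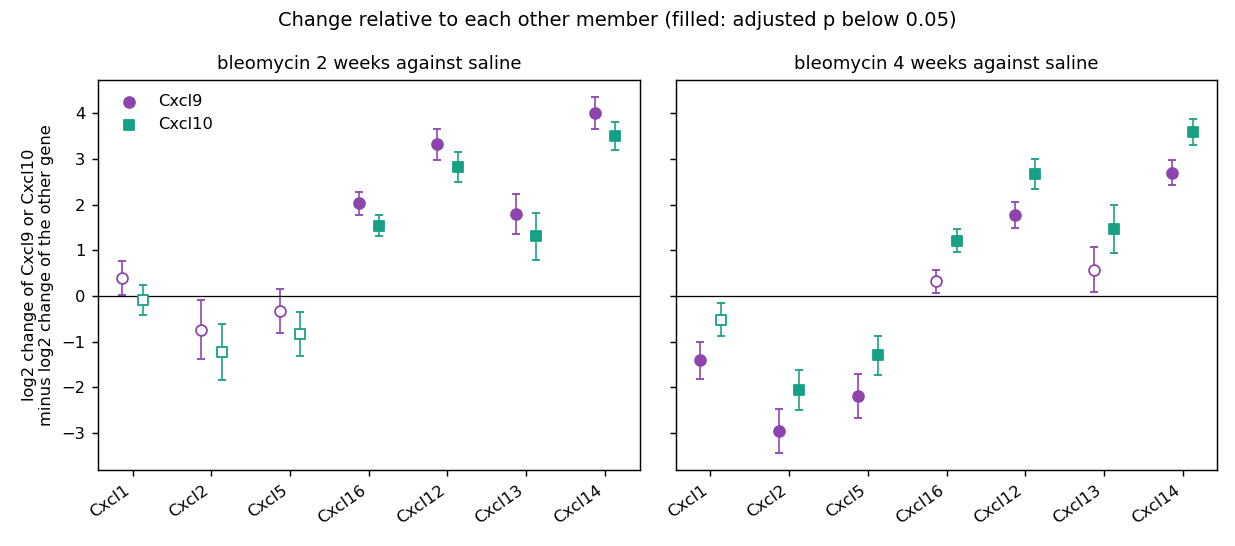
Change from saline of Cxcl9 (circles) or Cxcl10 (squares) minus the change of each other member, in log2 units, at 2 weeks (left) and 4 weeks (right) of bleomycin, 10 mice a group; bars are the standard error of the difference and filled points have an adjusted permutation p below 0.05. The neutrophil ligands lie around or below 0 at 2 weeks and below 0 at 4 weeks, with Cxcl9 at -2.95 against Cxcl2, and Cxcl12 and Cxcl14 lie above 0 at both times.

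Mice of 1 group also differed from each other, and Cxcl9 and Cxcl10 varied together. Over the 36 pairs of members, deviations of log2(normalized count + 1) from the group mean were correlated over 44 mice, with p from 100000 permutations. Cxcl9 and Cxcl10 gave Pearson's r = 0.712 (permutation adjusted p = 0.00036) and Spearman's rho = 0.634 (permutation adjusted p = 0.00108), and r = 0.658 once the 2 mice most distant from the Cxcl9 median were dropped. Within groups r was 0.84 in saline, 0.699 and 0.641 at 2 and 4 weeks, and 0.782 and 0.706 in recovery. It was the 1 pair that passed by both measures. Cxcl16 passed with Cxcl9 (r = 0.498) and Cxcl10 (r = 0.491) by Pearson's r (permutation adjusted p = 0.0467 each) but not by rho (0.379 and 0.45, permutation adjusted p = 0.15 and 0.0536). Cxcl1 and Cxcl2 gave r = 0.302 (permutation adjusted p = 0.126) and rho = 0.307 (permutation adjusted p = 0.189), and Cxcl2 and Cxcl9 r = 0.123 (permutation adjusted p = 0.655) and rho = 0.046 (permutation adjusted p = 0.855).

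**Figure D4:**
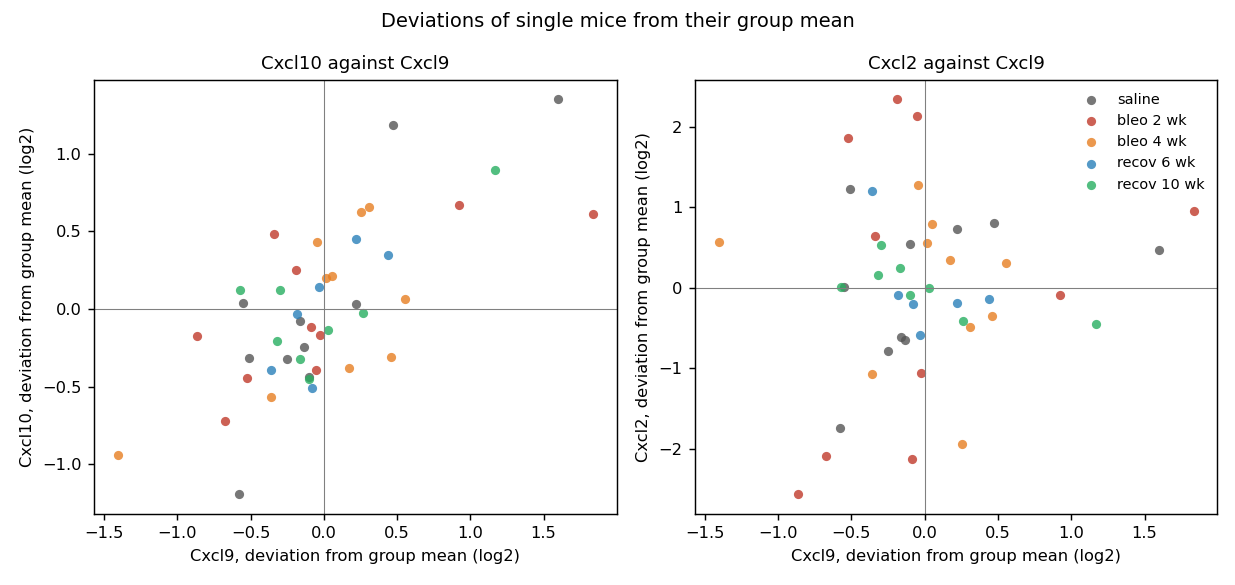
Deviation of each of 44 mice from its group mean on log2(normalized count + 1), for Cxcl10 (left) and Cxcl2 (right) against Cxcl9, coloured by group. The left points follow a rising line (r = 0.712) in all groups, while the right points scatter (r = 0.123).

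Among all tested genes, those whose deviations were most like a member's over the 44 mice are given as a description. For Cxcl9 they were the interferon-induced GTPase Gbp2 (r = 0.782), the T cell membrane gene Ms4a4b (0.757) and Calhm6 (0.717). For Cxcl10 they were Cxcl9 (0.712), Cdhr1 (0.679) and Elf3 (0.652). Cxcl2 went with Plrg1 (0.681), the inflammatory cytokine Il1b (0.681) and the neutrophil ligand Cxcl3 (0.68), and Cxcl5 with the acute-phase gene Saa3 (0.808), Cd38 (0.797) and Bcl2l11 (0.735). For Cxcl1 the likeness was weaker, 0.557 with Eed being the highest, followed by Bbip1 (0.525) and Tarm1 (0.518). Cxcl16 was closest to the class I antigen presentation genes H2-Q7 (0.895), B2m (0.881) and H2-K1 (0.868), of which the H2 genes have near-identical relatives whose reads may be split. Cxcl12 went with Aplp2 (0.817), Ece1 (0.776) and Foxp1 (0.752), Cxcl13 with Aoah (0.701), Cd300ld (0.661) and Serinc3 (0.645), and Cxcl14 with the tight junction gene Cldn3 (0.777), Zfp362 (0.754) and the hair follicle regulator Barx2 (0.751). The 44 mice share groups and normalization, and the genes were picked from 17037.

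The rest of the ligand family was low except for Pf4. Of the 6 other CXC ligands, 4 passed the filter and 3 of them were higher at both bleomycin times. Cxcl3, which like Cxcl2 signals through Cxcr2, had no more than 3 reads in any saline mouse, a median of 6.60 normalized counts at 2 weeks (0 to 16.3) and of 14.1 at 4 weeks (5.24 to 161.2). Its log2 fold change was 1.83 (limma adjusted p = 0.0028) and 3.44 (limma adjusted p = 2.67e-07), and it was higher at 4 than at 2 weeks by 1.61 (SE 0.49, limma adjusted p = 0.0415). Cxcl11, the third ligand of Cxcr3, was higher by 1.79 (limma adjusted p = 3.87e-06) at 2 weeks, 1.22 (limma adjusted p = 0.000895) at 4 weeks and 1.18 (limma adjusted p = 0.0223) at 6 weeks of recovery. Ppbp, a platelet ligand, was higher by 1.13 (limma adjusted p = 0.0135) and 1.49 (limma adjusted p = 0.0012). Pf4, a platelet and macrophage ligand at a saline median of 501.9, differed by 0.00 and 0.55 (limma adjusted p = 0.988 and 0.0321), below the fold limit, and Cxcl15 and Cxcl17 were below the filter.

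Of 8 receptor genes, 6 passed the filter, and Cxcr1 and Cxcr5 did not. At 2 weeks 2 of the 6 were higher (9.3% of all genes), and at 4 weeks 1 was higher (10.5%) and 1 lower (7.37%). Cxcr2, the neutrophil receptor, ran from 8.35 to 42.4 in saline (median 21.6), from 23.5 to 189.9 at 2 weeks (median 67.8) and from 7.82 to 113.5 at 4 weeks (median 34.0), with log2 fold changes of 1.70 (limma adjusted p = 0.00011) and 0.72 (limma adjusted p = 0.1). At 10 weeks of recovery it was lower than in saline, by 1.17 (limma adjusted p = 0.0464). Cxcr4, the Cxcl12 receptor, was higher by 0.79 (limma adjusted p = 1.96e-05) and 0.74 (limma adjusted p = 4.65e-05). Ackr3, a scavenger of Cxcl12, differed by -0.47 and -0.55 (limma adjusted p = 0.00055 and 5.9e-05), under the fold limit, and was higher at 6 weeks of recovery than at 4 weeks of bleomycin by 0.82. Cxcr3, the receptor of Cxcl9 and Cxcl10, differed by 0.48 (limma adjusted p = 0.14) and -0.11 (limma adjusted p = 0.778). Cxcr6, the Cxcl16 receptor, differed by -0.40 (limma adjusted p = 0.129) and was lower at 4 weeks, by 0.86 (limma adjusted p = 0.000813). Ackr1, which binds inflammatory chemokines on venules and red cells, differed by -0.13 and -0.26 and was not called.

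Some genes of the interferon response were higher as well. Of 13 tested genes of interferon signalling, 7 were higher at 2 weeks (9.3% of all genes) and 5 at 4 weeks (10.5%), with none lower, and none was called in recovery against saline. The list's median log2 fold change was 0.73 at 2 weeks and 0.45 at 4 weeks, where that of all genes was 0.0025 and -6e-04. Irf7, the master regulator of type I interferon, went from a median of 292.8 normalized counts (163.7 to 608.3) to 3005 at 2 weeks (1533 to 5508) and 2586 at 4 weeks (1520 to 3385), a log2 fold change of 3.34 and 2.97. Stat2 was higher by 1.46 and 1.18, and Irf9, its partner, by 1.34 and 1.15. None of the 13 was called between 4 and 2 weeks. Ifng itself was below the filter, at medians of 2.61 in saline, 5.56 at 2 weeks and 2.65 at 4 weeks, and Ifnb1 had at most 1.55 normalized counts in any mouse.

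Cytokines known to induce the neutrophil ligands were also examined. Of 13 tested genes of IL-17, IL-1 and NF-kB signalling, 2 were higher at 2 and at 4 weeks, where 9.3% and 10.5% of all genes were, with a list median of 0.03 and 0.04. They were Il1b, by 1.67 (limma adjusted p = 3.75e-06) and 1.28 (limma adjusted p = 0.000223), and Tnf, by 0.94 (limma adjusted p = 0.000159) and 1.05 (limma adjusted p = 3.26e-05), both inflammatory cytokines. Il17a and Il17f were below the filter. Il1a, a keratinocyte alarm cytokine, was lower at both recovery times, by 0.71 and 0.73 (limma adjusted p = 0.0096 and 0.00579), and Zc3h12a, an RNase that degrades inflammatory RNA, was lower at 10 weeks, by 0.73.

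Of the 8 genes of lymphotoxin and B cell follicle signalling, which acts upstream of Cxcl13, 1 was higher at 2 weeks and 1 lower at 4 weeks. They were Ltb, by 0.76 (limma adjusted p = 0.0122), and Tnfrsf13c, by 0.83 (limma adjusted p = 0.0425). Of all genes, 9.3% were higher and 7.43% lower at 2 weeks, and 10.5% and 7.37% at 4 weeks. Tnfsf13b, the B cell survival factor BAFF, was higher in recovery, by 1.124 (limma adjusted p = 0.00206) and 0.74 (limma adjusted p = 0.0374), where Cxcl13 was at its lowest. It was the 1 gene of the 8 called there, where 3.33% and 2.05% of all genes were higher. Of 5 proteases that trim or shed chemokines, Dpp4, which inactivates Cxcl9, Cxcl10 and Cxcl12 protein, was lower at 2 and 4 weeks, by 0.59 (limma adjusted p = 6.94e-05) and 0.96 (limma adjusted p = 8.42e-09). Mmp8, a neutrophil and stromal collagenase that cleaves Cxcl5, was higher by 2.06 (limma adjusted p = 1.69e-06) and 3.19 (limma adjusted p = 8.67e-11). The Cxcl16 sheddases Adam10 and Adam17 were not called.

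Markers of the responding cells were counted as well, and their part in these results was not tested. For the marker counts here and below, 9.3% of all genes were higher and 7.43% lower at 2 weeks, and 10.5% and 7.37% at 4 weeks. For neutrophils, 5 of 5 tested markers were higher at 2 weeks and 4 of 5 at 4 weeks, the summed list having a median of 156.6 normalized counts in saline (105.6 to 198.8), 1346 at 2 weeks (543.4 to 10680), 767.9 at 4 weeks (453.9 to 1900) and 132.8 and 117.1 in recovery (122.0 to 285.8 and 96.98 to 155.1). The granule genes Mpo and Ngp, made by immature neutrophils, were at medians of at most 0.545 in every group, and Lcn2, S100a8 and S100a9 are also made by keratinocytes. Between 4 and 2 weeks 1 of 5 neutrophil markers was called lower (0.863% of all genes), Csf3r by 0.90 (limma adjusted p = 0.0141). None of the 3 neutrophil ligands was called. Larger falls of Retnlg (-1.43, limma adjusted p = 0.0938) and Lcn2 (-1.30, limma adjusted p = 0.0532) were not called, and S100a8 and S100a9 differed by -0.04 and -0.16. For T and NK cells, 5 of 8 markers were higher at 2 weeks and 2 of 8 at 4 weeks, with sums at a median of 500.6 in saline (277.8 to 886.2), 809.7 at 2 weeks (569.5 to 1725), 730.4 at 4 weeks (548.4 to 978.9) and 578.8 and 413.5 in recovery (462.6 to 653.1 and 328.1 to 593.0). Between 4 and 2 weeks 2 of these 8 were lower (0.863% of all genes), Cd8a by 1.33 (limma adjusted p = 0.0254) and Nkg7 by 0.90 (limma adjusted p = 0.00419). The other 6 were not called. Cd4 alone among them was higher, by 0.34 (limma adjusted p = 0.427), and the rest ran from -0.73 for Klrb1c (limma adjusted p = 0.168) to -0.21 for Trac (limma adjusted p = 0.717).

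For macrophages and dendritic cells, 4 of 8 markers were higher and Flt3 lower at 2 weeks, and 5 of 8 were higher at 4 weeks, the summed list moving from a median of 5657 (4353 to 7928) to 9178 (5735 to 16740) and 8207 (5677 to 15050), and standing at 5230 (4846 to 5770) and 4884 (4041 to 5817) in recovery. For B cells, the cells that Cxcl13 attracts, the list was split: Cd79a and Cd79b were higher and Blk and Fcer2a lower at 2 weeks, with sums at medians of 41.2 in saline (31.99 to 71.17), 47.7 at 2 weeks (29.8 to 153.5) and 49.2 at 4 weeks (21.5 to 94.6). The defining B cell gene Ms4a1 was below the filter, with a median of 0 in saline. Of the fat cell markers 1 of 4 was lower at 2 weeks and 2 of 4 at 4 weeks, and of 5 skeletal muscle markers 0 were called at either time.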

How the data were processed

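RNA from back skin of 44 mice was sequenced as stranded mRNA libraries. The deposited table holds normalized counts, a signal scale on which the authors divided reads per gene by a size factor for each mouse; the submitters' processing notes name STAR 2.4.0, DESeq2 1.12.3 and mm10. The read counter, annotation and strand setting are not given in the sources used here. Whole reads were recovered from the steps of the values (100.0% whole within 0.01 reads in each mouse), all columns matched a mouse (0 unassigned), and symbols were found for 98.9% of IDs.

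Groups were taken from the labels. limma 3.58.1 was fitted over all 5 groups to log2(normalized count + 1) of genes with a mean above 3 normalized counts, with moderated variances and Benjamini-Hochberg adjustment, in R 4.3.3. edgeR 4.0.16 and DESeq2 1.42.0 on recovered reads, another pseudocount (0.1), other filters, TMM and quantile scaling, a replicate block and leaving out mice were alternatives. The tests were tested on simulated data. Ratios and correlations were tested by permutation (scipy 1.17.1, numpy 2.4.6).

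All 9 members are described in every comparison, Cxcl5 in recovery against saline without a fold and the comparison of the recovery times by its range; of the 20 gene lists, counts are given, and values for called genes among the 4 largest changes of a list, all other CXC ligands and all receptors; other genes were named after their values were seen. The 3 genes most like each member were named by correlation of deviations from group means. The members and lists were chosen with earlier results of these data known. Jak2, Ly6g and Tchh were not analysed here, and some list genes that enter the counts are not reported here by name. The p-values measure the spread between mice. A count of 0 allows up to 3 reads, which is 2.19 to 3.90 normalized counts depending on the mouse, and intervals of reads cover counting error only.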

Additional observations from a re-analysis of the deposited data

Results flagged for a closer look

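In 45 sets of 1 gene in 1 group, the gap between an extreme mouse and its nearest neighbour was compared with the group's range on log2(normalized count + 1), and 6 exceeded Dixon's 95% value; chance alone gives about 1 in 20. Cxcl9 was high in saline replicate 5 (215.9 normalized counts, gap 0.518 of the range) and low in bleomycin 4 weeks replicate 3 (52.8, gap 0.534). Cxcl10 was high in recovery 10 weeks replicate 6 (122.3, gap 0.573). In recovery at 6 weeks, Cxcl13 was high in replicate 5 (78.9, gap 0.654), Cxcl2 in replicate 4 (9.25, gap 0.72), and Cxcl5 was at 0 in replicate 2 (gap 0.632), where no mouse of that group had more than 2 reads.

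The effect of bleomycin on Cxcl9 differed between the 2 times, by -1.62 on the log2 scale at 4 against 2 weeks (limma adjusted p = 0.000265); the same saline mice serve both times. The other 8 members had no such difference past the threshold.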

How the results depend on the processing

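The counts of members called were 7 or 8 (8 as reported) against saline at 2 and at 4 weeks, 0 at 10 weeks of recovery, 1 between 4 and 2 weeks, 6 to 8 (7 as reported) between recovery at 6 weeks and 4 weeks of bleomycin and 0 between the recovery times, under 11 alternatives each; without any 1 mouse they were 7 to 8, 7 to 8, 0, 1, 7 and 0. The exception was recovery at 6 weeks against saline, with 2 as reported: 1 with no filter on low values, 1 with quantile normalization, 1 without both libraries that stood apart, 1 with a replicate block, and 0 when only those groups were fitted, 0 with edgeR and 0 with DESeq2; leaving out 1 mouse gave 0 to 2. Of 693 values of members under the alternatives, 666 kept their direction and side of the threshold, 16 were no longer called, 1 was newly called and 10 changed sign, none of them called. The last were Cxcl14 in recovery at 6 weeks against saline (0.02 with the replicate block), Cxcl2 at 10 weeks (-0.11 with the block, -0.01 with edgeR, -0.02 with DESeq2), Cxcl10 at 10 weeks (-0.05 with edgeR, -0.04 with DESeq2), Cxcl2 at 4 against 2 weeks (-0.07 with edgeR, -0.06 with DESeq2) and Cxcl13 at 10 against 6 weeks of recovery (-0.12 with edgeR, -0.14 with DESeq2); the cause was not tested. Cxcl16 without both libraries that stood apart was 0.42 at 2 weeks and 0.58 at 4 weeks. The ratio tests passed 8 of 14 at 2 weeks (10 with a pseudocount of 0.1, which adds Cxcl10 against Cxcl2 and Cxcl5) and 11 of 14 at 4 weeks. The replicate numbers do not pair the mice: over 78 pairs of same-numbered mice the correlation of deviations had a median of -0.002 (-0.691 to 0.38), 18 were above 0.1, and 4 of 44 mice correlated best with their own number. The median log2 fold change of all genes was at most 0.024 in size in any comparison under the 11 alternatives. With TMM or quantile scaling it was at most 0.018. Over all genes limma called 2851 at 2 weeks and 3053 at 4 weeks, edgeR on recovered reads 2922 and 3136. Without the fold limit the counts were 6063, 6242, 1547 (859 with it) and 994 (519) against saline, 956 (400) between 4 and 2 weeks and 4260 (2035) for recovery at 6 weeks against 4 weeks of bleomycin; with only the groups compared, 326 in place of 519 were called at 10 weeks, and between the recovery times 56, or 58 without both libraries that stood apart and 63 with DESeq2, in place of 15. Depth limits Cxcl5, Cxcl3 and Ppbp in saline, where no mouse had more than 3 reads.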
